A study of Ciona robusta with 133 samples.

Results

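Nodal, Lefty, Bmp2/4, Admp, Chordin and Noggin encode secreted signals of the TGF-beta superfamily and the secreted proteins that hold them in check. These 6 genes, taken by identifier under a rule that uses no measured value, are 6 of the 15287 gene models in the deposited count table: KH.L106.16 (Nodal), KH.C3.411 (Lefty), KH.C4.125 (Bmp2/4), KH.C2.421 (Admp), KH.C6.145 (Chordin) and KH.C12.562 (Noggin). The table itself holds identifiers only, and the names came with the member list. Their read counts are described here across all 19 cell types and 5 stages of the series.

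The study profiled single, hand-dissected cells of Ciona robusta, an ascidian in which the first cleavages always run the same way, so that each cell carries a name and a known fate. Its title asks how alike 2 neural lineages are early in development. One is the A line of the anterior vegetal embryo and the other is the a line of the anterior animal embryo. No treatment, mutant or strain is given in the labels. The groups differ in cell type and stage, and many also differ in the embryos they came from. Only at the earliest stage do the labels tie A-line and a-line cells to shared embryos. In later comparisons between the lineages, lineage and embryo set therefore cannot be told apart.

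At 16 cells the groups were A5.1 and a5.3. At 32 cells they were A6.1 and A6.2 of the A line and a6.5 and a6.6 of the a line, and at 64 cells A7.2, A7.3, A7.4, a7.10 and a7.11. At 112 cells they were A8.5, A8.7, a8.19 and a8.22. At the 6-row neural plate stage, labels name pairs of cells: A9.9+A9.10 and A9.13+A9.14 of the A line with a9.37+a9.38 as well as a9.43+a9.44 of the a line. The labels do not say which cell of a pair a library holds, and an asterisk on an embryo's number (2*, 3*) is copied from them. By textbook fate maps A7.2 gives endoderm, A7.3, A8.5 and A9.9+A9.10 give notochord, A7.4, A8.7 and A9.13+A9.14 give nerve cord, a7.10, a8.19 and a9.37+a9.38 give anterior neural tissue, while epidermis comes from a7.11, a8.22 as well as a9.43+a9.44.

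Nodal is a ligand that signals through activin-type receptors and Smad2/3, and Lefty is a secreted antagonist of Nodal. Bmp2/4 and Admp are ligands of the BMP branch, which signals through Smad1/5/8. Chordin and Noggin bind BMP ligands outside the cell and keep them from their receptors. In chordates, BMP signalling is known for its part in separating epidermis from neural tissue and in dorsoventral patterning, and in Ciona Nodal is known for its part in patterning the neural plate from its midline to its edges.

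The 133 libraries, 72 of the A line and 61 of the a line, had total counts between 1452103 and 16599891 with a median of 7546701. Each cell type had 6 to 9 libraries from 2 to 8 embryos. Cells of 1 type from 1 embryo were summed, so n counts embryos, and levels are counts per 1000000 reads (CPM), given as mean ± SD over embryos. CPM ignores gene length, so levels are compared between cell types and not between genes. The labels do not say whether embryos came from separate parents or batches, so p-values measure the spread between these embryos. The A6.1 library of embryo 5 stood apart, with 7137 genes detected against at least 9667 in every other library. It held 0 counts of 5 of the genes and 1 count of Chordin, and it was left out of the values below. Both A7.4 libraries of embryo 3 correlated less with the other A7.4 libraries (median r of 0.921 and 0.925) than with A7.2 (0.922 and 0.927), unlike the other 5 A7.4 libraries. A closer match to another cell type of the same lineage and stage was not rare by this measure. It was found in 7 of 7 A7.3 and 6 of 7 A7.2 libraries, which ran closest to A7.4, in 6 of 7 A8.5 libraries, closest to A8.7, in 2 of 6 A9.9+A9.10 libraries, closest to A9.13+A9.14, and in 19 of the 32 libraries at 32 cells and 1 of 6 of a7.11. Defining markers of notochord, nerve cord, endoderm and epidermis could not be looked up, because no reference used here ties their names to KH identifiers. The cell type names therefore rest on the labels.

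**Figure D1:**
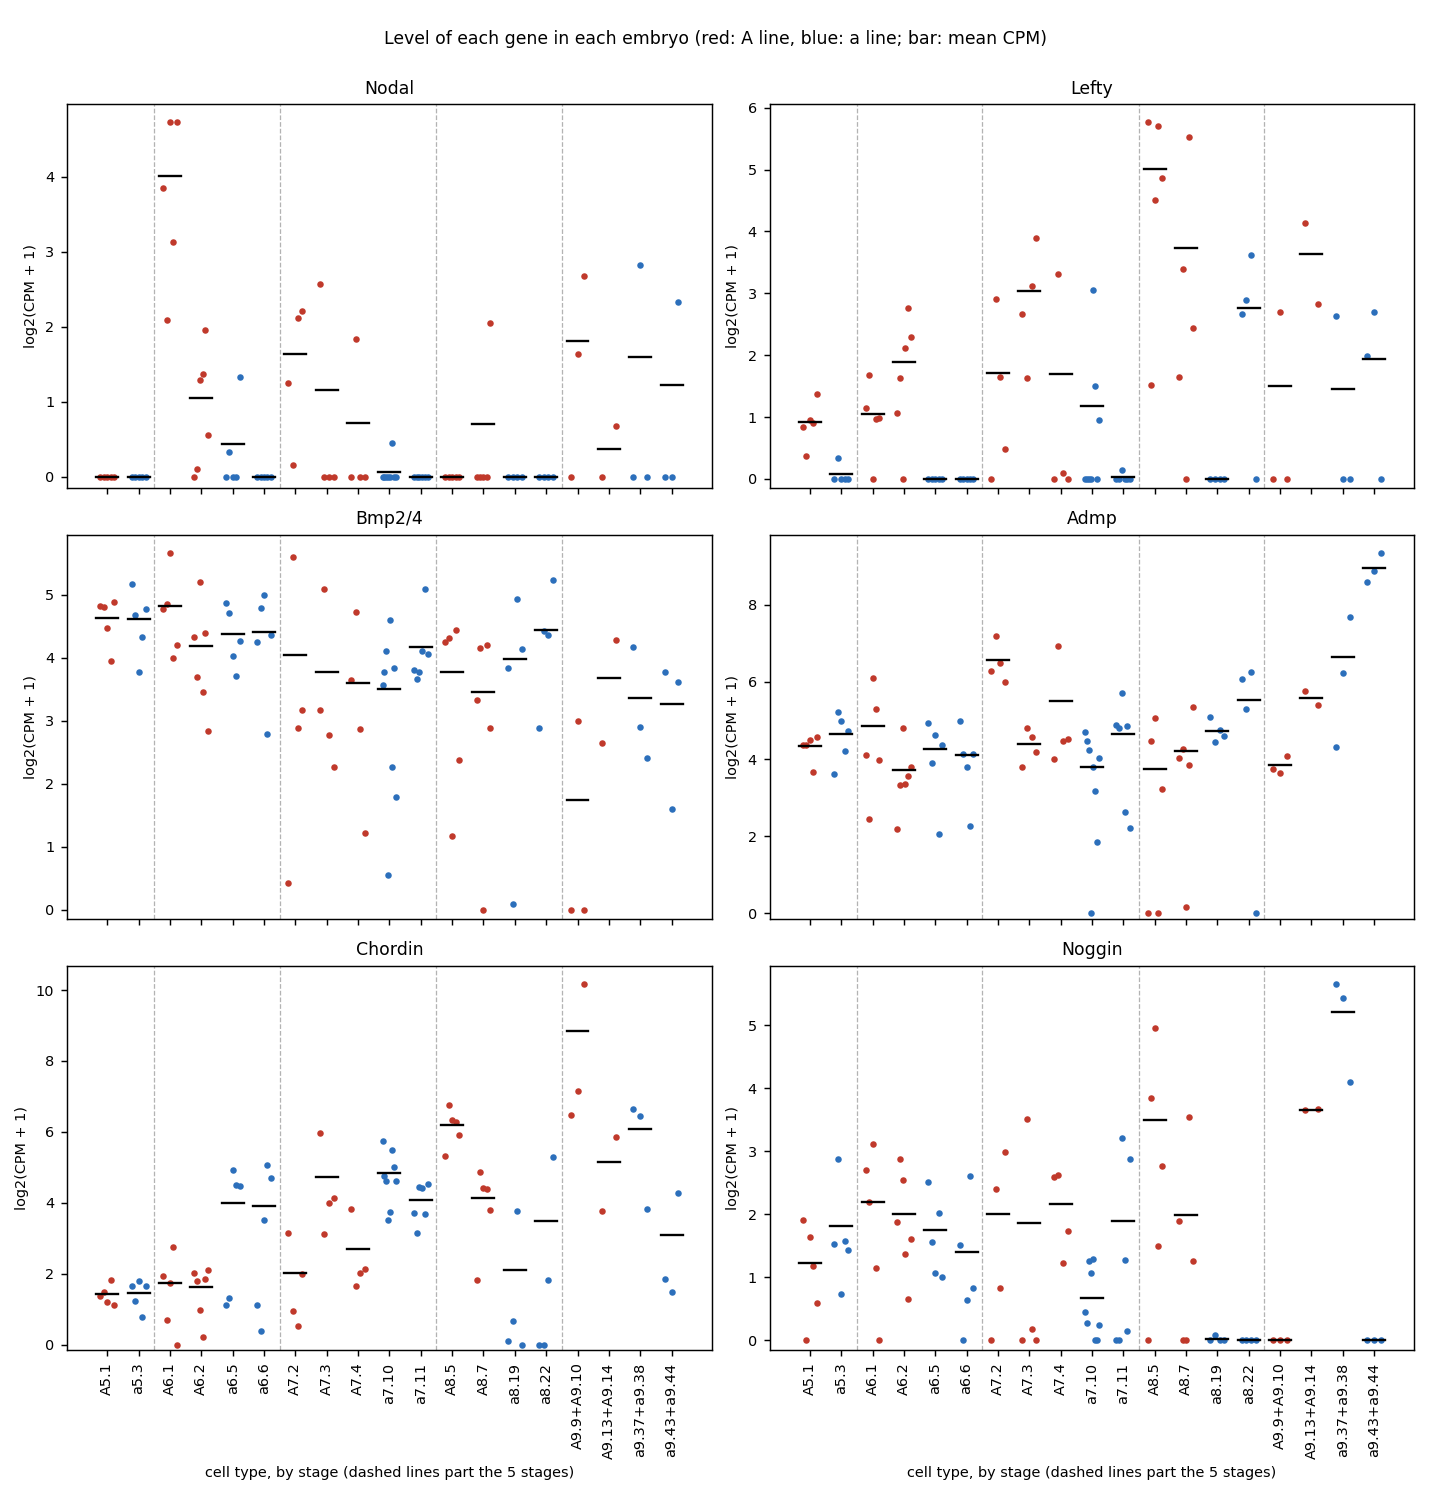
Level of the 6 genes in each embryo, as log2(CPM + 1), by cell type in order of stage. Each point is 1 embryo (red, A line; blue, a line), the bar is the log2 of the mean CPM plus 1, dashed lines part the 5 stages, and A6.1 of embryo 5 is not drawn. Nodal stands out in A6.1, Lefty in A8.5, Admp in a9.43+a9.44, Chordin in A9.9+A9.10 and Noggin in a9.37+a9.38.

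Nodal was detected in few libraries and peaked in 1 cell type, the vegetal cell A6.1 of the 32-cell stage. Reads of Nodal were found in 29 of 132 libraries, 24 of 71 from the A line and 5 of 61 from the a line. At 16 cells no library had a Nodal read, in A5.1 or in a5.3, which allows up to 0.0470 and 0.0464 CPM (3 counts over each group). Such limits, and the folds given below as at least a value, cover counting error only and not the spread between cells or embryos. In A6.1 all 8 libraries had Nodal reads, and the 5 embryos stood at 3.28, 7.73, 13.4, 25.4 and 25.5 CPM. Every A6.1 embryo was therefore above every A5.1 embryo, and Nodal was at least 320-fold higher in A6.1 than in A5.1 (fitted log2 fold change 10.47 ± 2.697 SE, edgeR adjusted p = 0.00718). In that step 13% of all genes tested passed, and the call held in all 10 fits without 1 embryo.

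The sister cell A6.2 had far less Nodal, but this difference did not pass the test. Its 6 embryos ranged from 0 to 2.90 CPM with a median of 0.962 CPM, all below the lowest A6.1 embryo. The means, 15.1 ± 10.1 CPM in A6.1 and 1.08 ± 1.12 CPM in A6.2, differed 13.9-fold, or 21.00-fold without A6.2 of embryo 5 (log2 fold change -3.87 ± 1.21 SE, adjusted p = 0.960; in the fit blocked by embryo, 0.139). No gene of 11229 tested passed between these sisters, a share of 0%. In the a line at 32 cells a6.6 had no Nodal read, and in a6.5 embryos 2 and 5 stood at 0.256 and 1.51 CPM with the other 3 at 0. At 64 cells A7.2, a daughter of A6.1, had 1.38, 0.121, 3.34 and 3.64 CPM, and A7.3 and A7.4 each had reads in 1 of 4 embryos. At 112 cells Nodal was seen in 1 of 28 libraries, from A8.7 of embryo 7, which stood at 3.14 CPM.

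At the neural plate stage Nodal returned in scattered embryos of every group. In A9.9+A9.10 it stood at 0, 2.12 and 5.42 CPM, against 0 in all 5 embryos of A8.5, from which these cells descend. Nodal was at least 43.1-fold higher in A9.9+A9.10 (adjusted p = 0.0345), in a step where 15.3% of genes passed. That call rested on few embryos: it was lost in 6 of 8 fits without 1 embryo, namely without any embryo of A8.5 or embryo 3* of A9.9+A9.10 (adjusted p of 0.0534 to 0.107), and the bound was 18.2-fold without embryo 3*. With the A6.1 library of embryo 5 in the fit the adjusted p was 0.0834. No other group at this stage had Nodal in more than 1 embryo. Of the 18 gaps between neighbours in the order of mean levels, the one below A6.1 alone exceeded the larger SD of its pair.

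Up to the 112-cell stage most libraries with Lefty reads were of the A line. Its reads were found in 52 of 71 A-line libraries and in 13 of 61 a-line libraries, but at the neural plate stage in 6 of 12 and 5 of 12. Already at 16 cells the A5.1 embryos stood at 0.793, 0.297, 0.944, 0.876 and 1.60 CPM, and 1 of 5 a5.3 embryos had any read, at 0.270 CPM. The groups did not overlap, and the ratio was 32.4 (95% counting interval 8.62 to 274), but the level was too low for the test.

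At 32 cells Lefty was higher in A6.2 than in the a-line cell a6.5. A6.2 ranged from 0 to 5.79 CPM with a median of 2.71 CPM over 6 embryos, and 0 of 7 libraries of a6.5 had a read, which allows up to 0.0470 CPM. The groups touch at 0, since A6.2 of embryo 3 also had no read. Lefty was at least 57.6-fold higher in A6.2 (log2 fold change 8.00 ± 1.84 SE, adjusted p = 0.0141), in a comparison where 10.1% of genes passed. A6.2 and a6.5 are not tied to shared embryos, so lineage and embryo set cannot be told apart here. The call held in all 11 fits without 1 embryo, and ended with the A6.1 library of embryo 5 in the fit (adjusted p = 0.0625) and under limma voom (0.0608). The other a-line cell, a6.6, had no Lefty read either, and A6.1 stood at 1.07 ± 0.786 CPM (n = 5).

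Along the notochord side of the A line, mean Lefty levels were 2.71 CPM in A6.2, 7.23 CPM in A7.3 and 31.2 CPM in A8.5, and then 1.82 CPM in A9.9+A9.10. A7.3 embryos stood at 5.34, 2.10, 7.69 and 13.8 CPM and A8.5 embryos at 53.4, 1.86, 21.7, 50.9 and 28.1 CPM. All 7 libraries of each of these cell types had Lefty reads. In A9.9+A9.10 embryo 2* stood at 5.46 CPM and the other 2 embryos at 0. None of these steps passed (adjusted p of 0.680, 0.448 and 0.153), though the last did under DESeq2 (0.0401), limma voom (0.00867) and without embryo 2* (0.02103), and the ranges of these groups overlapped from each step to the next. On the nerve cord side A7.4 stood at 0, 8.95, 0.0638 and 0 CPM, where the high embryo is embryo 3, whose libraries ran slightly closer to A7.2. A8.7 stood at 2.14, 9.47, 0, 45.3 and 4.40 CPM, and the step from A7.4 to A8.7 did not pass (adjusted p = 0.448), but did without A7.4 of embryo 3 (0.0418). In A9.13+A9.14 both embryos had Lefty, at 16.7 and 6.09 CPM.

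In the a line at 64 cells Lefty was read in 3 of 8 embryos of the neural-side a7.10 and 1 of 6 of the epidermis-side a7.11. These cell types did not differ by the test. At 112 cells Lefty was read in 3 of 4 embryos of the epidermis-side a8.22 and in none of the neural-side a8.19. In a7.10 embryos 5, 6 and 8 stood at 7.29, 1.83 and 0.940 CPM and the other 5 embryos at 0. That was at least 26.7-fold above a6.5 (adjusted p = 0.0355; 14.5% of genes passed) and at least 23.5-fold above a8.19, which had no read in 7 libraries (adjusted p = 0.0463; 19.4% of genes passed). The first was lost in 6 of 13 fits without 1 embryo (any a6.5 embryo or a7.10 embryo 5, adjusted p of 0.0667 to 0.0807). The second was lost in 7 of 12 (any a8.19 embryo or a7.10 embryo 5, 6 or 8, adjusted p of 0.0506 to 0.0955). Without a7.10 embryo 5 the bounds were 8.42-fold and 7.399-fold.

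On the epidermis side a8.22 stood at 5.36, 6.38, 11.4 and 0 CPM, and its parent a7.11 had 1 count over 6 embryos. Lefty in a8.22 was 329 times that in a7.11, with a 95% counting interval of 58.7 to 13030 (log2 fold change 7.63 ± 2.26 SE, adjusted p = 0.0191). In this step 17.2% of genes passed, and the call held in all 10 fits without 1 embryo. Within the 112-cell a line, a8.22 and a8.19 did not differ by the test (at least 108-fold, adjusted p = 0.254, where 0.15% of genes passed). Between lineages A8.7 and a8.19 came closer to the threshold (at least 229-fold, adjusted p = 0.0658, where 0.538% of genes passed, and 0.0182 without A8.7 of embryo 5, which had no read). The bound was 74.8-fold without A8.7 of embryo 6. DESeq2 called a8.22 against a8.19 and A8.7 against a8.19 (adjusted p of 9.97e-05 and 1.17e-06) and limma voom neither. At the neural plate stage Lefty in a9.37+a9.38 came from embryo 1, at 5.19 CPM, with the other 2 at 0. It passed as at least 32.3-fold higher than in a8.19 (adjusted p = 0.0458; 18.8% of genes passed). Without that embryo no read was left, and the call was also lost without any a8.19 embryo (adjusted p of 0.0866 to 1.00 over these 5 fits). In the order of Lefty means the one gap above the larger SD lay between A5.1 and a5.3, with A8.5, A8.7, A9.13+A9.14 and A7.3 at the top.

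Bmp2/4 was read in nearly all libraries, at overlapping levels in most cell types, and passed no edgeR test. Its reads were found in 120 of 132 libraries, and in all 45 libraries of the 16-cell and 32-cell stages that were used. A5.1 embryos stood at 27.2, 26.9, 21.1, 14.4 and 28.8 CPM and a5.3 embryos at 34.9, 24.6, 12.62, 19.1 and 26.4 CPM. The groups overlapped fully, with means of 23.7 ± 5.95 and 23.5 ± 8.33 CPM (log2 fold change 0.04 ± 0.27 SE, adjusted p = 0.971). In this comparison 0.151% of genes passed.

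The lowest mean levels of Bmp2/4 were at the neural plate stage, but means were not lower at every step and no step between stages passed. In the a line they stood at 10.4 CPM in a7.10 against 14.8 CPM in a8.19, and at 17.1 CPM in a7.11 against 20.8 CPM in a8.22. The means were 17.2 to 27.2 CPM in the 4 cell types at 32 cells, 10.4 to 17.1 CPM in the 5 at 64 cells, 9.94 to 20.8 CPM in the 4 at 112 cells and 2.34 to 11.8 CPM in the 4 at the neural plate stage. A6.1 had the highest mean, at 27.2 ± 13.7 CPM (n = 5), and the notochord-side A9.9+A9.10 the lowest. In A9.9+A9.10 1 of 6 libraries had a read, so that embryo 2* stood at 7.01 CPM and the other 2 at 0. Against A8.5, with 18.1, 18.9, 1.25, 20.9 and 4.18 CPM, the adjusted p was 0.207 (0.0398 under limma voom), and 0.00373 without embryo 2* of A9.9+A9.10. Over all comparisons Bmp2/4 had 0 calls by edgeR among 17 between cell types of 1 stage and 17 between stages, and 0 with an unadjusted p below 0.05. Embryos of 1 cell type differed widely: in A7.2 embryo 3 stood at 47.4 CPM and the other 3 at 0.345 to 8.00 CPM, and in A7.3 the same embryo stood at 33.2 CPM against 3.83 to 8.01 CPM. In the order of means only the gap above A9.9+A9.10 exceeded the larger SD of its pair.

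Admp had its highest levels in the epidermis-side cells of the neural plate stage. The 3 embryos of a9.43+a9.44 stood at 382, 467 and 645 CPM, above every other embryo of the series. Its parent cell a8.22 stood at 66.5, 38.3, 75.9 and 0 CPM. The groups did not overlap, and Admp was 11.03-fold higher in a9.43+a9.44 (log2 fold change 3.499 ± 1.00 SE, adjusted p = 0.0108), in a step where 20.6% of genes passed. The call held in all 7 fits without 1 embryo.

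Within the neural plate stage the notochord-side cells A9.9+A9.10 had little Admp, at 12.5, 11.3 and 15.9 CPM. Admp was 37.6-fold lower there than in a9.43+a9.44 (log2 fold change -5.26 ± 0.70 SE, adjusted p = 0.00147), and 1.62% of genes passed in this comparison. That call held in all 6 fits without 1 embryo, with adjusted p of 0.00484 to 0.0108. It sets A-line embryos against a-line embryos, so lineage, fate and embryo set cannot be told apart in it. In between, A9.13+A9.14 stood at 53.5 and 41.1 CPM, and a9.37+a9.38 at 18.9, 73.5 and 204 CPM. The neural-side a9.37+a9.38 did not overlap with a9.43+a9.44 and its mean of 98.8 ± 95.1 CPM was 5.04-fold lower, but the difference missed the threshold (log2 fold change -2.39 ± 0.61 SE, adjusted p = 0.151, where 0.769% of genes passed). It was 0.0713 with the embryo as a block and 0.0196 without a9.37+a9.38 of embryo 3, where the ratio was 10.8, and it passed under DESeq2 (0.00313) and limma voom (0.00979).

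At the first stages Admp was read in every cell type, and at 64 cells its highest mean was in A7.2. Reads of Admp were found in all 45 libraries of the first 2 stages that were used, with means of 12.1 to 28.2 CPM over their 6 cell types. A7.2 stood at 77.0, 145, 89.5 and 62.9 CPM and A7.3 at 13.0, 27.1, 22.7 and 17.1 CPM. The endoderm-fated and the notochord-fated cell did not overlap, with means of 93.6 ± 36.0 and 19.97 ± 6.199 CPM, yet this 4.69-fold difference did not pass (adjusted p = 0.514; 0.0172% of genes passed). It passed when only these groups entered the fit (0.0314), and stood at 0.0569 in the fit blocked by embryo. In A7.4 embryo 3 stood at 121 CPM and the other 3 at 14.9 to 21.99 CPM. Embryo 3 is the one whose A7.4 libraries ran slightly closer to A7.2, and its Admp level lay within the range of A7.2. In the order of Admp means, neighbours differed beyond the larger SD below a9.43+a9.44 and between A7.2 and A9.13+A9.14, and in no other of the 18 pairs.

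**Figure D2:**
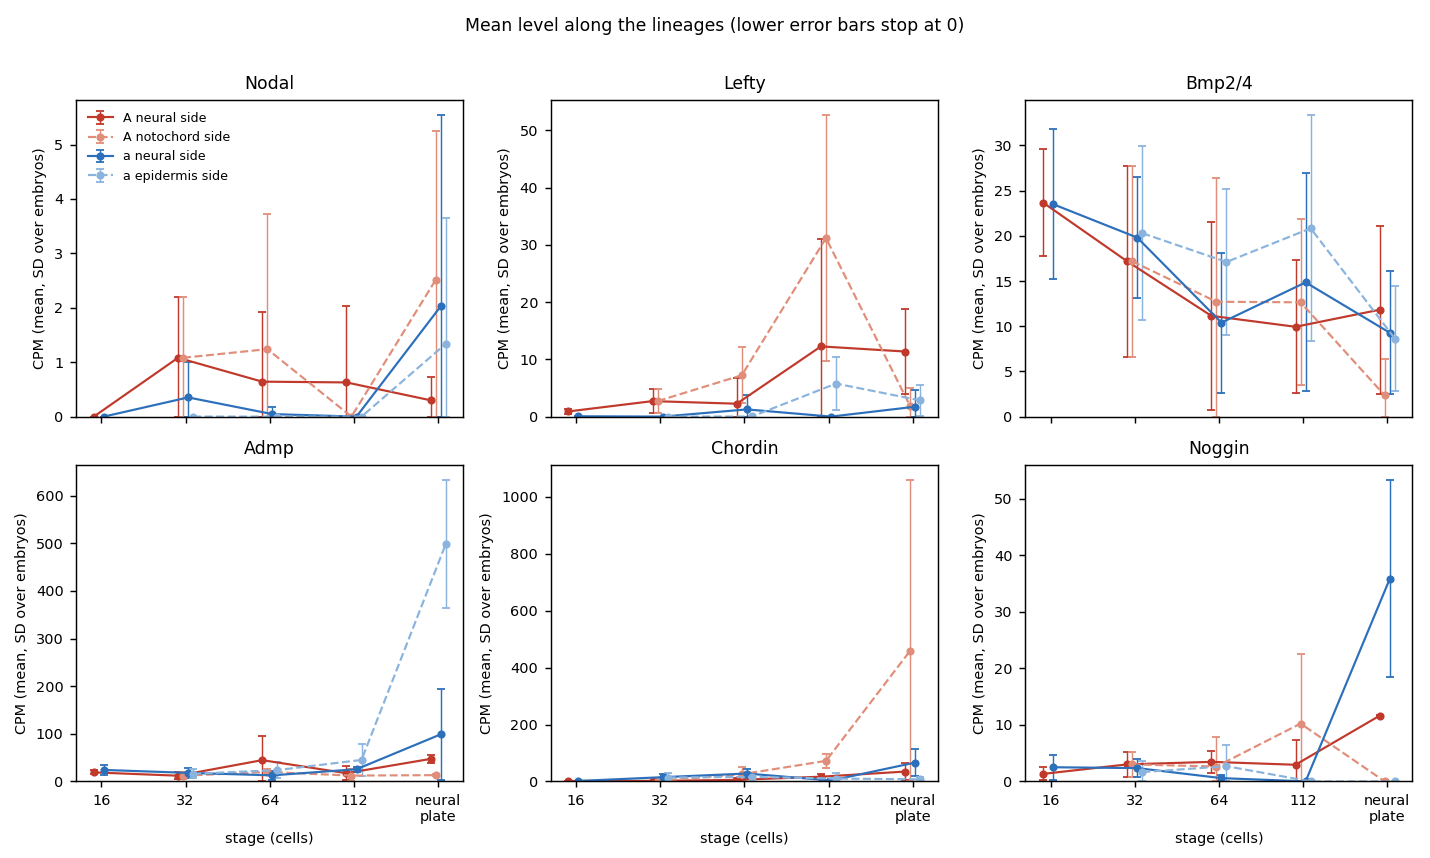
Mean CPM of the 6 genes along 4 lines of descent, with SD over embryos as error bars that stop at 0; the axis gives the stage in cells. Solid lines are the neural sides (A5.1, A6.2, A7.4, A8.7, A9.13+A9.14 and a5.3, a6.5, a7.10, a8.19, a9.37+a9.38), dashed lines the notochord side (A6.2, A7.3, A8.5, A9.9+A9.10) and the epidermis side (a6.6, a7.11, a8.22, a9.43+a9.44), and A6.1 and A7.2 are not drawn. Admp reaches 498 CPM on the epidermis side, Chordin 459.6 CPM on the notochord side and Noggin 35.9 CPM on the a-line neural side.

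Chordin was low in both lineages at 16 cells and reached its highest levels on the notochord side of the A line. A5.1 and a5.3 had means of 1.67 ± 0.527 and 1.75 ± 0.715 CPM (n = 5 each), and A6.1 and A6.2 had 2.32 ± 2.27 and 2.09 ± 1.25 CPM. The notochord-fated A7.3 stood at 61.8, 7.70, 14.9 and 16.7 CPM, above all 6 embryos of its parent A6.2, which ranged from 0.159 to 3.30 CPM with a median of 2.52 CPM. Chordin was 12.1-fold higher in A7.3 (log2 fold change 3.54 ± 0.79 SE, adjusted p = 0.00921), in a step where 2.07% of genes passed. Without A7.3 of embryo 2 the ratio was 6.26 and the adjusted p 0.0602, and under limma voom it was 0.158. A8.5 stood at 38.9, 107, 80.1, 76.9 and 59.0 CPM, with all 7 libraries positive, and the step from A7.3 missed the threshold (adjusted p = 0.224).

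A9.9+A9.10 had the highest mean of Chordin but also the widest spread. Its 3 embryos stood at 87.6, 141 and 1151 CPM, with the last from a single library. Of all libraries used, that library had the fewest genes detected (9667) and the lowest median r with its own type (0.889). It still correlated less with A9.13+A9.14 (0.878). Chordin was 6.35-fold higher than in A8.5 (adjusted p = 0.0203, or 0.0639 with the A6.1 library of embryo 5), and 60.8-fold higher than in the epidermis-side a9.43+a9.44, which stood at 2.60, 1.79 and 18.3 CPM (adjusted p = 0.0477). Both sizes hung on embryo 3* of A9.9+A9.10. Without it the first ratio was 1.58 (adjusted p = 0.740) and the second 15.1 (0.169). The second was also lost without a9.43+a9.44 of embryo 1 or 2 (up to 0.212), without the filter on low counts (0.188) and under limma voom (0.297), and it was 209 without a9.43+a9.44 of embryo 3. All A9.9+A9.10 embryos were above all a9.43+a9.44 embryos, but the labels do not tie these groups to shared embryos. In no pair of neighbours in the order of Chordin means did the gap exceed the larger SD.

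Within the A line the notochord side had a larger mean of Chordin than the nerve cord side at each stage compared, and none of these differences passed. The sisters A7.3 and A7.4 overlapped (4.63-fold, adjusted p = 1.00), and the ratio was 2.40 without A7.3 of embryo 2 and 8.79 without A7.4 of embryo 2. At 112 cells A8.5 did not overlap with the nerve cord-fated A8.7, which stood at 2.51, 28.0, 20.3, 19.8 and 13.0 CPM (4.33-fold, adjusted p = 0.964; 0.335% of genes passed). A9.9+A9.10 did not overlap with A9.13+A9.14, at 12.7 and 56.7 CPM (13.2-fold, adjusted p = 0.716; 0.211% of genes passed), but the ratio was 3.28 without A9.9+A9.10 of embryo 3* and 36.1 without A9.13+A9.14 of embryo 2*. Across the lineages A8.5 did not overlap with a8.22, whose embryos are given below, but the 7.13-fold difference did not pass (adjusted p = 0.471, and 0.0140 under limma voom; 1.58% of genes passed). The a8.22 mean lay mostly with embryo 4, without which the ratio was 85.3. A7.3 overlapped with A7.2, at 7.93, 0.927, 0.426 and 2.99 CPM, by 1 embryo of each (8.23-fold, adjusted p = 0.228, and 0.00688 under DESeq2). That ratio was 4.27 without A7.3 of embryo 2 and 17.5 without A7.2 of embryo 2.

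In the a line all 7 libraries of a5.3 had Chordin reads at 16 cells, and levels at 32 cells varied by embryo. The a6.5 embryos stood at 1.18, 1.49, 29.6, 21.7 and 21.1 CPM and those of a6.6 at 1.15, 0.297, 10.4, 32.5 and 25.2 CPM. Embryos 1 and 2 were low in both cell types and embryos 3, 4 and 5 high in both, so the cells of 1 embryo went together. At 64 cells a7.10 ranged from 10.4 to 52.5 CPM with a median of 24.9 CPM over 8 embryos. Its A-line counterpart A7.4 stood at 13.2, 2.15, 3.06 and 3.409 CPM, and the groups overlapped by embryo 2 of A7.4. Chordin was 5.11-fold lower in A7.4 (log2 fold change -2.33 ± 0.72 SE, adjusted p = 0.0341), where 10.7% of genes passed. The labels do not tie A7.4 and a7.10 to shared embryos. Every a7.10 library is a right-side cell, while A7.4 has cells of both sides. The part of embryo set and side in this difference was not tested. The call was lost in 5 of 12 fits without 1 embryo: A7.4 embryo 3, 4 or 5, or a7.10 embryo 1 or 6 (adjusted p of 0.0539 to 0.110). Without A7.4 embryo 2 the ratio was 9.70.

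At 112 cells the a-line levels were low in most embryos and high in 1 per group. a8.19 stood at 0.0782, 0.577, 12.7 and 0 CPM and a8.22 at 0, 0, 2.55 and 38.1 CPM. The high a8.22 sample, embryo 4, was also the one without any Admp or Lefty read, and its library correlated best with the other a8.22 libraries (median r of 0.919 against 0.912 with a8.19). By the neural plate stage the embryos of a9.37+a9.38 stood at 99.3, 86.7 and 13.2 CPM, all above a8.19. Chordin was 19.9-fold higher (adjusted p = 0.0400), a call lost in 5 of 7 fits without 1 embryo: a8.19 embryo 1, 2 or 4, or a9.37+a9.38 embryo 1 or 2 (adjusted p of 0.0841 to 0.0965). Without a8.19 of embryo 3 the ratio was 304.

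Noggin separated the neural cells of the neural plate stage from the notochord and epidermis cells. Reads of Noggin were found in 6 of 6 libraries of A9.13+A9.14 and 6 of 6 of a9.37+a9.38, and in 0 of 6 of A9.9+A9.10 and 0 of 6 of a9.43+a9.44. The absence in these last groups allows up to 0.0932 and 0.0848 CPM. The 3 embryos of a9.37+a9.38 stood at 49.4, 42.0 and 16.2 CPM, and the 2 of A9.13+A9.14 at 11.6 and 11.7 CPM.

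**Figure D3:**
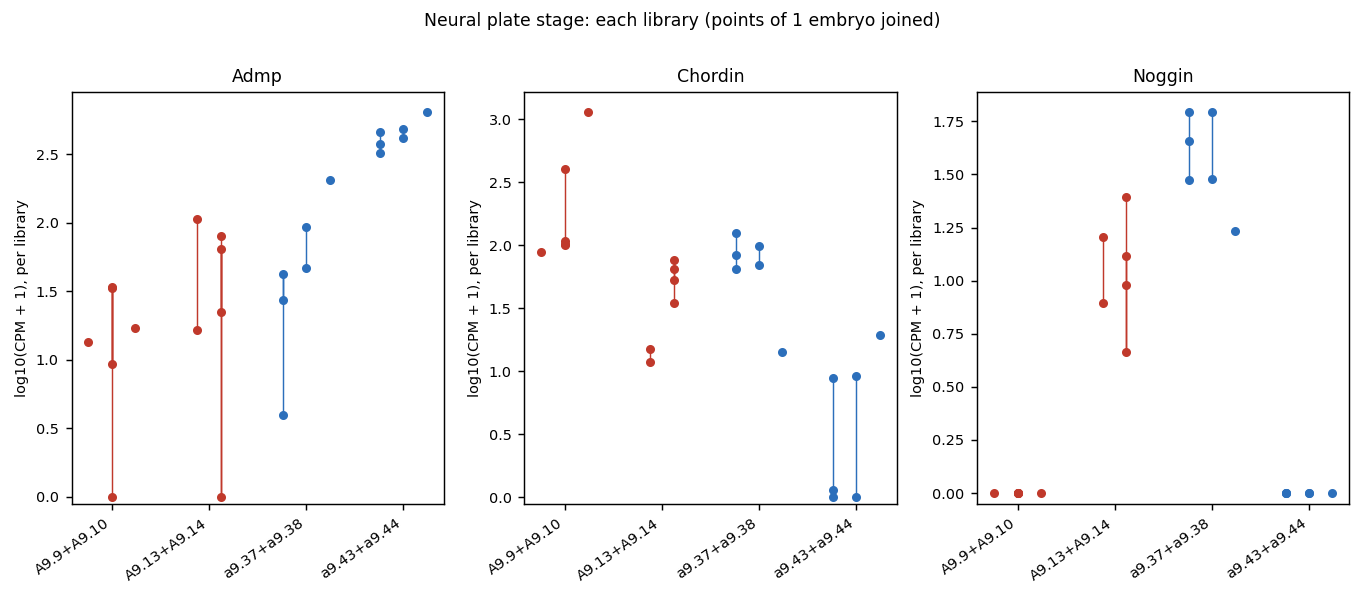
Admp, Chordin and Noggin in each library of the neural plate stage, as log10(CPM + 1). Points of 1 embryo are joined (red, A line; blue, a line). Noggin is at 0 in all 12 libraries of A9.9+A9.10 and a9.43+a9.44 and above 0 in all 12 of A9.13+A9.14 as well as a9.37+a9.38, and Admp is above 320 CPM in every a9.43+a9.44 library.

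In the a line this difference passed the test. Noggin was at least 423-fold higher in a9.37+a9.38 than in a9.43+a9.44 (log2 fold change 11.56 ± 1.58 SE, adjusted p = 0.0183; in the fit blocked by embryo, 0.0493). Leaving out embryo 1 or 2 of either group ended the call (adjusted p of 0.0571 to 0.120). In the A line, with 2 embryos of A9.13+A9.14, Noggin was at least 125-fold higher than in A9.9+A9.10 with no overlap, and just missed the threshold (log2 fold change 9.92 ± 1.57 SE, adjusted p = 0.0746; in the fit blocked by embryo, 0.883). It passed under DESeq2 (2.65e-06) and limma voom (0.0209). The a-line and A-line neural cells did not overlap either, but their 3.08-fold difference did not pass (adjusted p = 1.00; 0.110% of genes passed).

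The a-line neural level arose after the 112-cell stage. In a8.19 Noggin had 1 count over 7 libraries, so that the ratio of a9.37+a9.38 to a8.19 was 2122 with a counting interval of 380 to 83941 (log2 fold change 10.29 ± 2.12 SE, adjusted p = 0.000563). This call held in all 7 fits without 1 embryo. Before that rise, mean Noggin on the a-line neural side was 2.36 CPM in a6.5, 0.590 CPM in a7.10 and 0.0160 CPM in a8.19. Neither of these falls passed the test. On the epidermis side Noggin also fell. It ranged from 0 to 8.30 CPM in a7.11, with a median of 0.762 CPM over 6 embryos. In a8.22 it had no read in 7 libraries. It was at least 54.4-fold lower in a8.22 than in a7.11 (log2 fold change -7.87 ± 1.91 SE, adjusted p = 0.00376), or 31.8-fold without a7.11 of embryo 5, and the call held in all 10 fits without 1 embryo. The groups met at 0, where 2 of the a7.11 embryos lay.

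On the notochord side A8.5 had Noggin in 4 of 5 embryos, at 13.4, 30.2, 1.81 and 5.81 CPM, before it was absent from A9.9+A9.10. Noggin was at least 110-fold lower in A9.9+A9.10 than in A8.5 (adjusted p = 0.0190), or 56.3-fold without A8.5 of embryo 5. The call was lost without any 1 embryo of A9.9+A9.10 (adjusted p of 0.0589 to 0.0712) and with the A6.1 library of embryo 5 (0.0508). On the nerve cord side A9.13+A9.14 and its ancestor A8.7 did not overlap in Noggin (3.94-fold, or 11.3-fold without A8.7 of embryo 6, adjusted p = 0.681) or in Admp (2.73-fold, adjusted p = 0.564), yet neither passed in that step, where 3.73% of genes did. At 16 and 32 cells Noggin was low in all cell types, with means of 1.34 to 3.59 CPM, and no comparison of those stages passed. In the order of Noggin means the gap between a9.37+a9.38 and A9.13+A9.14 alone exceeded the larger SD of its pair.

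**Figure D4:**
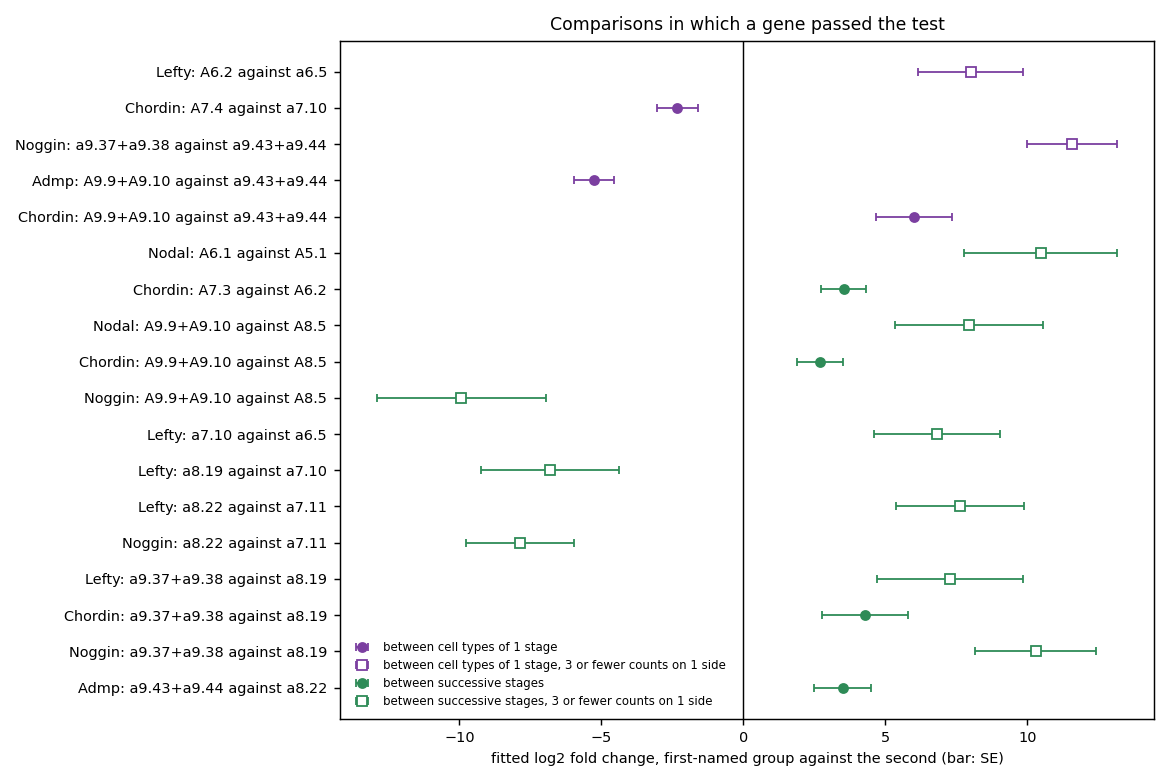
The 18 comparisons in which 1 of the 6 genes passed the test, as fitted log2 fold changes of the first-named group against the second, with SE as bars. Purple marks cell types of 1 stage and green successive stages; open squares mark comparisons with 3 or fewer counts on 1 side, where the fitted size depends on the fit and is no bound. Of the 13 comparisons between stages, 10 lie to the right of 0, where the later stage was higher, and 3 to the left, and Bmp2/4 does not appear.

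Over all comparisons the 6 genes passed 5 of 96 tests between cell types of 1 stage, a share of 5.21% against 1.57% over all genes and the same comparisons. Between successive stages they passed 13 of 102 tests, 12.7% against 9.29% over all genes. These shares count 6 genes that were chosen by name with earlier results of these data known, and the comparisons share samples. Some of the tests counted had no read of the gene in either group and could not pass, such as Noggin in A9.9+A9.10 against a9.43+a9.44. Nodal was under the count filter in A5.1 against a5.3 and in the 4 comparisons at 112 cells, and Lefty in the first of these.

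Whether a partner difference was larger in 1 lineage than in the other was tested as the step from partner to neural cell in the A line less that in the a line. No gene of the 6 passed by edgeR in 23 such tests, where 0.278% of all genes did, while 6 had an unadjusted p below 0.05, and DESeq2 called 4. For Lefty at 32 cells and Noggin at the neural plate stage the edgeR test could not decide. Lefty had no read in either a-line cell and Noggin none in either partner, so the difference had no usable size (SE of 2483 and 2241). The lowest adjusted p of these tests was that of Admp at the neural plate stage. The A-line partner there is notochord-fated and the a-line partner epidermis-fated, so lineage and partner fate cannot be told apart. Within the embryos that both partners share, Admp stood on average 35.4 CPM higher in A9.13+A9.14 than in A9.9+A9.10 (2 embryos). In a9.37+a9.38 it stood on average 399 CPM lower than in a9.43+a9.44 (3 embryos). Every embryo had the sign of its lineage, which is the rule by which this case was flagged. The difference was 4.18 ± 0.89 SE on the log2 scale, with an adjusted p of 0.0786, and 0.0312 with the embryo as a block. For Chordin at the same stage it was -6.93 ± 1.87 SE (adjusted p = 0.216), and for Nodal at 32 cells -9.04 ± 2.15 SE (adjusted p = 0.396).

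Left and right cells of the same embryo and type could be set against each other in 15 embryos with 33 libraries on each side. Bmp2/4 stood at 18.9 ± 12.5 CPM on the left and 19.3 ± 13.2 CPM on the right, and Admp at 32.2 ± 23.9 and 31.7 ± 29.4 CPM (n = 15). Each was higher on the left in 8 embryos and on the right in 7. Noggin was higher on the right in 9 of the 13 embryos with a read, at 2.86 ± 2.88 against 1.70 ± 1.72 CPM. Nodal, known for its left-sided expression at later stages in chordates, was higher on the left in 4 and on the right in 5 of the 9 embryos with a read, and was under the count filter. No gene of the 6 passed in the paired fit (adjusted p = 0.9998 for the 5 tested), nor did any of the 10617 genes tested (0%), of which 374 had an unadjusted p below 0.05, and DESeq2 called 0.

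The genes whose mean levels over the 19 cell types ran closest to each of the 6 were found by Pearson's r of log2(mean CPM + 1), among 10808 genes with at least 5 CPM in 1 cell type. These were KH.L7.28 (0.891) and KH.L58.2 (0.846) for Nodal, both highest in A6.1, and KH.S298.1 (0.823) and KH.S1096.1 (0.802) for Lefty, both highest in A8.5. For Bmp2/4 they were KH.C5.72 (0.890) and KH.S390.12 (0.886). For Admp they were KH.C12.486 (0.874) and KH.C9.417 (0.866), both highest in a9.43+a9.44, and for Chordin KH.C13.116 (0.894) and KH.C4.716 (0.874), both highest in A9.9+A9.10. For Noggin they were KH.C2.971 (0.721) and KH.C8.870 (0.721), both highest in a9.37+a9.38. Among the 6 themselves, Bmp2/4 and Chordin ran most opposite (r = -0.77, Spearman's rho = -0.68 over 19 cell types), and every other pair lay between -0.29 and 0.36 in r. The points share libraries and read depth, and these values are descriptions.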

How the data were processed

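The authors deposited 1 table of raw read counts, in whole numbers and not normalized, with 15287 gene models and 133 libraries, of which 0 columns were left unmatched to a sample. Per the labels' protocols, cDNA of single hand-dissected cells was amplified with SMARTer chemistry, tagmented and read single-end on a NextSeq instrument, and per the submitters' processing notes reads were aligned with STAR 2.7.10a. The counting program, genome build, annotation and use of strand were not given in the sources used here, so reads shared with overlapping or near-identical genes are uncertain. Counts are amplified reads without molecular identifiers, so intervals and limits cover counting error only.

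Libraries of 1 cell type and embryo were summed, which gave 87 embryo samples, 86 of them used. CPM is the count per 1000000 of all reads of the sample. Libraries of 1 group always differed by more than sampling noise (lowest chi-square per gene of 12.59). Tests were edgeR 4.0.16 quasi-likelihood fits in R 4.3.3 (TMM, robust dispersion, edgeR's filter on low counts, all genes), with 1 fit per stage, 1 fit per lineage for steps between stages and 1 paired fit for left and right. P-values were adjusted by Benjamini-Hochberg over all genes of a comparison, the threshold was 0.05, and the SE comes from the F statistic. Where a group had no read, a fold is a bound against 3 counts over that group. Where it had 1 to 3 counts, the ratio has a 95% counting interval. Alternatives were RLE size factors, no low-count filter, a 10 CPM filter, DESeq2 1.42.0, limma voom 3.58.1, only the 2 groups, the embryo as a block, the A6.1 library of embryo 5 put back, and leaving out each embryo.

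Partner cells of 1 lineage, and A5.1 and a5.3, share embryos per the labels. A-line and a-line groups of the later stages are not tied to shared embryos, so comparisons between them could not be blocked by embryo. Same-embryo samples correlated in their residuals with a mean r of 0.31 at 16 cells, 0.55 and 0.37 at 32 cells (A and a), 0.26 and 0.061 at 64, 0.11 and 0.031 at 112, and 0.088 and 0.12 at the neural plate stage.

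All 6 members are named, with the 2 identifiers most like each. The rule for members uses no measured value, but members and lists were chosen with earlier results of these data known. Lists of pathway genes and cell type markers matched 0 identifiers, since 0 of the KH identifiers are among the 21486 genes of the RefSeq table, and no sequence of these genes is used here.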

Additional observations from a re-analysis of the deposited data

Results flagged for a closer look

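In 22 of the 79 groups tested, the highest embryo stood far above the rest. Its gap to the next, divided by the range of the group, passed Dixon's 95% value. The chance rate of 1 in 20 groups holds for normally distributed values and is no yardstick here. A group with reads in only 1 embryo always gives a share of 1.00. The gap took the following shares of the range, each for the highest embryo.

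Embryo 3 of the 64-cell A line was the high one for several genes. It carried 1.00 of the range for Nodal in A7.4, 0.993 for Lefty in A7.4, 0.933 for Admp in A7.4, 0.837 for Bmp2/4 in A7.2, 0.857 for Bmp2/4 in A7.3 and 0.988 for Noggin in A7.3. Embryo 2 of the same stage and line carried 1.00 for Nodal in A7.3, 0.833 for Chordin in A7.3 and 0.886 for Chordin in A7.4. The A7.4 libraries of embryo 3 ran slightly closer to A7.2 as described above, and the part of this in the values was not tested.

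In the 112-cell A line, embryo 6 carried 0.791 for Lefty and 0.743 for Noggin in A8.7, and embryo 7 carried 1.00 for Nodal there. In the 112-cell a line embryo 4 carried 0.933 for Chordin in a8.22, embryo 3 carried 0.955 for Chordin in a8.19 and embryo 2 carried 1.00 for Noggin in a8.19, the last at 0.0642 CPM. In the 64-cell a line embryo 5 carried 0.749 for Lefty in a7.10 and 1.00 for Lefty in a7.11 (0.111 CPM), embryo 6 carried 1.00 for Nodal in a7.10 (0.366 CPM), and embryo 7 carried 0.788 for Bmp2/4 in a7.11. In earlier a-line cells embryo 5 carried 0.830 for Nodal in a6.5, and embryo 3 of a5.3 carried 1.00 for Lefty (0.270 CPM) and 0.770 for Noggin.

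The Admp difference between partners at the neural plate stage differed in direction between lineages. The partner is notochord-fated in the A line and epidermis-fated in the a line, so lineage and partner fate cannot be told apart. The A-line difference between partners lay 434.7 CPM above the a-line difference, with every embryo of a lineage on its own side. That split of signs is the rule by which the item was flagged. The test of this difference is given in the report (adjusted p = 0.0786, and 0.0312 with the embryo as a block).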

How the results depend on the processing

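Between cell types of 1 stage the 6 genes had 5 calls, 12 under DESeq2 and 4 to 6 under the other alternatives, and 3 to 6 in fits without 1 embryo. Between successive stages they had 13 calls, 5 when only the 2 groups entered the fit, 9 with a 10 CPM filter, 10 with the A6.1 library of embryo 5, and 10 to 14 in fits without 1 embryo. In the lineage difference 0 calls became 4 under DESeq2 and 1 (Admp at the neural plate stage) with the embryo as a block, and 0 to 1 in fits without 1 embryo. Between left and right cells no call was made under any alternative. With the embryo as a block, comparisons within a lineage kept 1 call, Noggin in a9.37+a9.38 against a9.43+a9.44 (adjusted p = 0.0493), and the block changed no other call among them. The cause of these differences was not tested.

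Without leaving out embryos, 273 of 317 recomputed log2 fold changes kept their direction and side of the threshold, 21 lost a call and 23 gained one, 15 of these under DESeq2. Of 1585 recomputed without 1 embryo, 63 lost a call and 14 gained one. None reversed. The 1585 include fits without an embryo of a group outside the comparison, and results that did not pass to begin with. The share that lost a call is therefore no measure of how firm the calls are. Losses without an embryo of a compared group are given with each call in the Results. A mean over libraries in place of embryos moved Bmp2/4 and Admp in A9.9+A9.10 to 8.48 and 17.02 CPM. With 2 to 8 embryos per cell type and 3 in most neural plate groups, a difference that did not pass is not shown to be absent, and where reads were at 0 in a group the fitted size depends on the fit.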

Other observations

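Within a9.37+a9.38 the 6 libraries differed in their mix of a BMP ligand and the antagonists. The library of embryo 3 had the highest Admp, at 204 CPM, with the lowest Chordin, at 13.2 CPM, and the lowest Noggin, at 16.2 CPM. It was closest to its own type (median r of 0.914 against 0.906 with the epidermis-side a9.43+a9.44), but by the smallest margin of the 6 libraries. The right column 1 library of embryo 1 had the lowest Admp, at 2.96 CPM, with the highest Chordin, at 124 CPM, and Noggin at 61.2 CPM. The labels give 2 named cells for this group, and which of them each library holds is not known here. The libraries come from 3 embryos, so no test was made, and the extreme libraries were picked after their values were seen.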
